A study of Homo sapiens with 27 samples.

Results

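The 10 BCL2 family genes described here comprised 4 survival genes (BCL2, BCL2L1, BCL2L2 and MCL1), 2 effector genes (BAX and BAK1) and 4 BH3-only genes (BCL2L11, BBC3, PMAIP1 and BMF). They are defined by a list of gene names, with no threshold on a measured value, and they are 10 of the 60619 genes in the deposited count table. Reads were assigned to all 10 in every library, and all 10 passed the filter on low counts in each comparison.

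RNA-Seq was carried out on a pair of estrogen receptor-positive invasive lobular breast carcinoma (ILC) cell lines, MM134 (MDA-MB-134VI) and SUM44, and on long-term estrogen-deprived (LTED) variants of each, to ask which transcripts differ once the cells grow without estrogen. There were 9 groups of 3 libraries, each library from 1 well of a 6-well plate. MM134 parental, SUM44PE and SUM44F are the parental cultures, and all 3 were hormone-deprived in charcoal-stripped serum for 3 days before collection, so that parental and LTED cells were all collected without added estrogen. SUM44F was derived from SUM44PE by a change of growth medium and served as the parental culture of the SUM44 variants. The LTED variants A, B, D and E of MM134 and A and B of SUM44 were raised independently by keeping MM134 or SUM44F cells in charcoal-stripped serum for months, with no engineered allele and no added drug. Each variant is a single derivation, so p-values measure the spread between wells of 1 culture, which may be technical, and not the spread between derivations.

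Proteins of the BCL2 family decide whether the outer mitochondrial membrane stays intact. The survival proteins hold the effectors BAX and BAK1 in check, the BH3-only proteins bind and block the survival proteins or activate the effectors directly, and open effector pores release cytochrome c and start the caspase cascade. BCL2 is a known estrogen-responsive gene of luminal breast cancer, and BIM, the product of BCL2L11, is held down by growth factor signalling in many epithelial cells.

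Library totals ran from 28583554 to 134882175 assigned reads, and the 3 most abundant genes took 7.33 to 15.9% of a library. For SUM44 LTED-A, replicates 2 and 3 differed by less than counting noise (chi-square per degree of freedom of 0.312 over genes, against 2.35 to 58.1 for the other 26 pairs of replicates) and were counted as 1 sample, so that SUM44 LTED-A has n = 2. All 7 luminal epithelial markers were above 1 CPM, the normalized count scaled to the library total, in every library. CDH1, the E-cadherin gene whose loss defines lobular carcinoma, was at 8.35 to 24.6 CPM. One library stood apart in fibroblast markers. Replicate 1 of SUM44F carried all 6 above 1 CPM, with a summed level of 361 CPM against 5.03 to 35.9 CPM in the other libraries. It also held 120, 84 and 64 counts of the immune markers PTPRC, CD14 and NKG7, against at most 38, 9 and 9 elsewhere. MM134 parental replicate 3 and MM134 LTED-D replicate 2 had 5 of the 6 fibroblast markers above 1 CPM, summing to 35.9 and 27.7 CPM. The members' fold changes in the SUM44 variants, and the calls in other comparisons with SUM44F, are therefore also given without SUM44F replicate 1. Over all genes, SUM44F replicate 3 was the more divergent library of that group. Its chi-square per degree of freedom was 42.8 against replicate 1 and 39.2 against replicate 2. Between replicates 1 and 2 it was 14.1. A fit without replicate 1 keeps replicate 3. Without replicate 3, no member's call in a SUM44 variant changed. Because replicates 2 and 3 of SUM44 LTED-A are 1 sample, a fit without either of its samples leaves that variant with 1 sample, which is assumed to vary like the other groups.

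The promoters of the 4 BH3-only genes are shown because these genes moved together or apart in the comparisons that follow. Each line gives the bases up to 250 before the annotated start that lie outside annotated exons, from RefSeq on GRCh38.p14, read 5′ to 3′ on the gene's strand, with capitals marking the motif matches listed after them.
BCL2L11 (chr2:111120664-111120913, plus strand): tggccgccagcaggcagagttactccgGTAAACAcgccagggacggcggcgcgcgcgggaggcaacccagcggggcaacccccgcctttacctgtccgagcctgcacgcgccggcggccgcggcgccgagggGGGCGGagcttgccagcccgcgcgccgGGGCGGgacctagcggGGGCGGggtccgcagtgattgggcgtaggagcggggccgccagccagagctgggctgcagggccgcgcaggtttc
BMF, first annotated start (chr15:40108893-40109129, minus strand): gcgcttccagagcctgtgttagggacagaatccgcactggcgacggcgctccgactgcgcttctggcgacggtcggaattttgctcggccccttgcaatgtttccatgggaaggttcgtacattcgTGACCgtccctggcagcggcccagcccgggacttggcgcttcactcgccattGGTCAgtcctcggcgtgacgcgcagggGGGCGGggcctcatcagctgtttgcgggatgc
BBC3 (chr19:47232767-47232917, minus strand): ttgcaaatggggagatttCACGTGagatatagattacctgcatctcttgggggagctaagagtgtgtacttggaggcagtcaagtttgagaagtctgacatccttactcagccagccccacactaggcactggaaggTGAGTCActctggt
PMAIP1 (chr18:59899746-59899995, plus strand): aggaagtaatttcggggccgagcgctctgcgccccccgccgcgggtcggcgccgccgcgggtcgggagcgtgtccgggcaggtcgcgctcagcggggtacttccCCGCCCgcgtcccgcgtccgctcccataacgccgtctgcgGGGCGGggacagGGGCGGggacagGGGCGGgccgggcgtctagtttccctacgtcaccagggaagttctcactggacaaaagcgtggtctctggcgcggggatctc

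A promoter entry was matched for 8 of the 10 members, all but BCL2L2 and MCL1, and motifs were searched on both strands of the 250 bases before each start. The forkhead letters GTAAACA were found in the BCL2L11 window only, at -223 to -217, and in 2.98% of all 27305 promoters of that length. BCL2L11 also held 3 GC boxes (GGGCGG), which 5 of the 8 members and 42.3% of all promoters carried. The window at the first annotated start of BMF held the estrogen response element half-site GGTCA at -124 and at -72. The window at its second annotated start, not printed here, held GGTCA at -43. This motif was found at the first start of 2 of the 8 members (BMF and BAX) and in 33.1% of all promoters. The full estrogen response element was found in none of the 8 members and in 0.0439% of all promoters. BBC3 held the E-box CACGTG (2 of 8 members, 6.49% of promoters) and the AP-1 letters TGANTCA (1 of 8 members, 6.6% of promoters). PMAIP1 held 4 GC boxes. Of the other motifs searched, the E2F letters TTTNGCGC were found in BCL2L1 (1.54% of promoters) and the p53 half-site in BAK1 (5.53% of promoters), where it shares a base with a GC box, and TGACGTCA, the cAMP response element, was found in none of the 8 (1.77% of promoters). In BAX, an E-box overlapped GGTCA half-sites. The BCL2 window lies within annotated exon sequence and held none of these motifs. These are letter matches in short windows and not measured binding sites.

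In MM134 cells, all 4 LTED variants had far less BCL2 than the parental line, and the BH3-only genes BCL2L11 and BMF were also lower in all 4. MCL1 was the most abundant survival transcript per length in every group. In SUM44 cells BCL2 was not called in either variant, although it was called in LTED-B with library totals in place of TMM factors. BMF fell in both SUM44 variants and PMAIP1, which encodes NOXA, rose in both. The PMAIP1 call in LTED-A was lost in several alternative fits, and PMAIP1 was also higher in SUM44PE than in SUM44F. Throughout, a gene was called where its fold change exceeded 1.5 in either direction with an adjusted p under 0.001 by edgeR's quasi-likelihood test with Benjamini-Hochberg adjustment over all genes tested, the thresholds that the study used. The SE given with a log2 fold change is that change divided by the square root of the test's F statistic. It was not estimated directly by the fit. Where counts are low, as for BCL2 in MM134 LTED-E, it can be smaller than the counting error. Levels are CPM after trimmed-mean (TMM) normalization over all libraries, and comparisons between genes use CPM per kb of the canonical transcript.

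**Figure D1:**
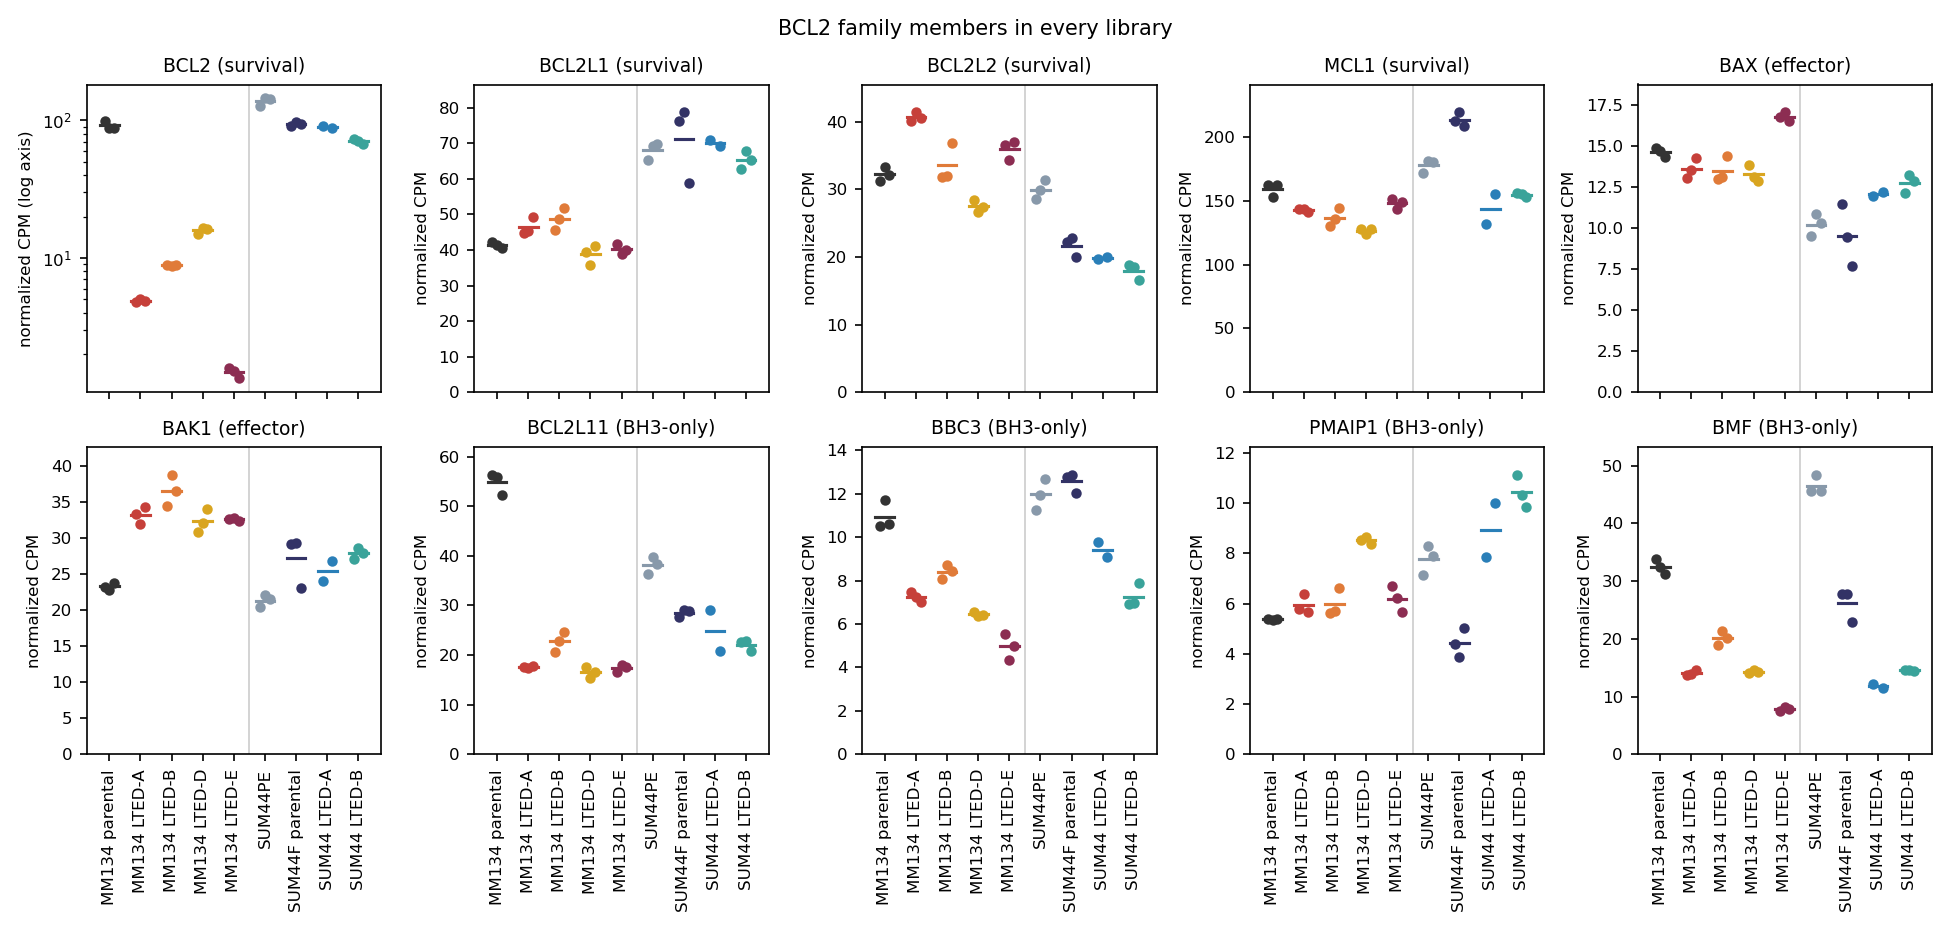
Level of each of the 10 members in every library, as normalized CPM (y axis, a log axis for BCL2 and linear axes from 0 for the others) by group (x axis); points are samples, lines are group means, and replicates 2 and 3 of SUM44 LTED-A are 1 point. BCL2 spans 1.34 to 144 CPM with every MM134 LTED library below every other library, whereas MCL1 lies between 124 and 220 CPM throughout.

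BCL2 (ENSG00000171791; chr18:63123346-63320128 on hg38, minus strand) is the founding survival gene of the family. Its level was 99.7, 88.3 and 88.5 CPM in the 3 MM134 parental libraries. It was 14.97, 16.6 and 16.1 CPM in LTED-D, 8.91, 8.80 and 8.90 CPM in LTED-B, and 4.79, 5.07 and 4.85 CPM in LTED-A. In LTED-E it was 1.58, 1.52 and 1.34 CPM, from 64 to 72 assigned reads a library. The 5 MM134 groups did not overlap, in the order parental, LTED-D, LTED-B, LTED-A and LTED-E. In bulk RNA, fewer cells that carry a transcript and less of it per cell cannot be told apart. BCL2 fell by 2.52 (SE 0.0511) on the log2 scale in LTED-D, by 3.37 (SE 0.054) in LTED-B, by 4.24 (SE 0.0557) in LTED-A and by 5.95 (SE 0.0689) in LTED-E, which are 5.73-fold, 10.4-fold, 18.9-fold and 62.0-fold lower levels. The adjusted p lay between 2.48e-21 and 1.06e-17 in the 4 variants (edgeR's quasi-likelihood test with Benjamini-Hochberg adjustment). The 4 variants are compared with the same 3 parental libraries, so their fold changes are not independent of each other. Of all genes tested, 4.44% were called lower in all 4 variants.

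The genes beside BCL2 on chromosome 18 had higher values in the MM134 variants. PHLPP1, on one side, had log2 fold changes of 0.40 to 0.68 over the 4 MM134 variants, and KDSR, on the other side, of 0.35 to 0.48. Over the 20 genes nearest to BCL2, in a window of 9727 kb, the median log2 fold change was 0.28 in LTED-A, 0.16 in LTED-B, 0.18 in LTED-D and 0.33 in LTED-E. In SUM44 LTED-A and LTED-B, PHLPP1 had log2 fold changes of -1.09 and -0.74, and KDSR of -0.37 and -0.23. The 20-gene medians there were -0.07 and -0.06.

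In SUM44, BCL2 was much nearer to the parental level. Its level was 91.5, 96.6 and 93.8 CPM in SUM44F, 91.0 and 88.7 CPM in SUM44 LTED-A, and 73.4, 70.9 and 66.9 CPM in SUM44 LTED-B. The libraries of both variants lay below all SUM44F libraries. The log2 fold change was -0.06 (SE 0.0694, adjusted p = 0.526) in LTED-A and -0.42 (SE 0.0623, adjusted p = 0.000302) in LTED-B by edgeR's quasi-likelihood test with Benjamini-Hochberg adjustment, the latter a 1.34-fold lower level and under the fold minimum. Without SUM44F replicate 1 the log2 fold changes were -0.084 and -0.44, neither called. With library totals in place of TMM factors BCL2 was called lower in LTED-B (-0.61, adjusted p = 0.00014 by edgeR's quasi-likelihood test with Benjamini-Hochberg adjustment). SUM44PE had the highest BCL2 of all groups, at 127, 144 and 143 CPM. MM134 parental and SUM44F had overlapping BCL2 levels and a log2 difference of -0.05 (SE 0.0503, adjusted p = 0.435 by edgeR's quasi-likelihood test with Benjamini-Hochberg adjustment). The mean BCL2 effect over the 4 MM134 variants, less the mean over the 2 SUM44 variants, was -3.79 (SE 0.0644) on the log2 scale, with an adjusted p of 1.19e-21 by the same edgeR quasi-likelihood test with Benjamini-Hochberg adjustment. Without SUM44F replicate 1 this difference was -3.78.

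MCL1 (ENSG00000143384; chr1:150560895-150579738, minus strand) encodes a short-lived survival protein. Its level was 163, 153 and 162 CPM in MM134 parental and 124 to 151 CPM in the 12 MM134 LTED libraries, each of which lay below the lowest parental library. The log2 fold changes were -0.16, -0.21, -0.32 and -0.09 in variants A, B, D and E, at most a 1.25-fold lower level, and none was called. In SUM44F MCL1 was at 213, 220 and 209 CPM, the highest of any group, against 132 and 156 CPM in SUM44 LTED-A and 157, 155 and 153 CPM in SUM44 LTED-B. MCL1 differed by -0.57 (SE 0.0861, adjusted p = 0.000435) in LTED-A and by -0.46 (SE 0.076, adjusted p = 0.000571) in LTED-B on the log2 scale by edgeR's quasi-likelihood test with Benjamini-Hochberg adjustment. Both passed the threshold on p with folds of 1.49 and 1.38, so neither was called at the 1.5-fold minimum, and without SUM44F replicate 1 they were -0.57 and -0.47, not called. With library totals both were called (-0.74 and -0.65). LTED-A rests on 2 samples that differ: with 1 of them left out it was -0.70, called, and with the other left out -0.41, not called.

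BCL2L1 (ENSG00000171552; chr20:31664452-31723989, minus strand) encodes BCL-XL. It was at 42.3, 41.4 and 40.6 CPM in MM134 parental and at 35.8 to 51.9 CPM in the MM134 variants, with log2 fold changes from -0.09 to 0.24. In SUM44F it was at 76.3, 78.7 and 58.8 CPM, and the SUM44 variants, at 62.9 to 70.9 CPM, lay within that range, with log2 fold changes of -0.02 and -0.13, and of 0.028 and -0.076 without SUM44F replicate 1, none called. BCL2L1 was lower in MM134 parental than in SUM44F by 1.74-fold (log2 difference -0.80, SE 0.074, adjusted p = 2.89e-09 by edgeR's quasi-likelihood test with Benjamini-Hochberg adjustment). Without SUM44F replicate 1 that log2 difference was -0.74 and still called.

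BCL2L2 (ENSG00000129473; chr14:23298790-23311751, plus strand) encodes the survival protein BCL-W. It was at 31.3, 33.3 and 32.2 CPM in MM134 parental, 40.1, 41.4 and 40.6 CPM in LTED-A and 28.4, 26.7 and 27.3 CPM in LTED-D, so that LTED-A lay above and LTED-D below the parental libraries. Its log2 fold changes of 0.33 and -0.22 in these variants, and of 0.06 and 0.17 in LTED-B and LTED-E, were not called. SUM44F and its variants held 16.6 to 22.9 CPM, with log2 fold changes of -0.13 and -0.27, and of -0.11 and -0.26 without SUM44F replicate 1, none called, and SUM44PE 28.6 to 31.4 CPM. BCL2L2 shares exons with the readthrough gene BCL2L2-PABPN1, whose estimated reads amounted to 13.4 to 41.8% of those of BCL2L2, and overlaps PPP1R3E on the opposite strand, so its values are uncertain where the counting split these reads.

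**Figure D2:**
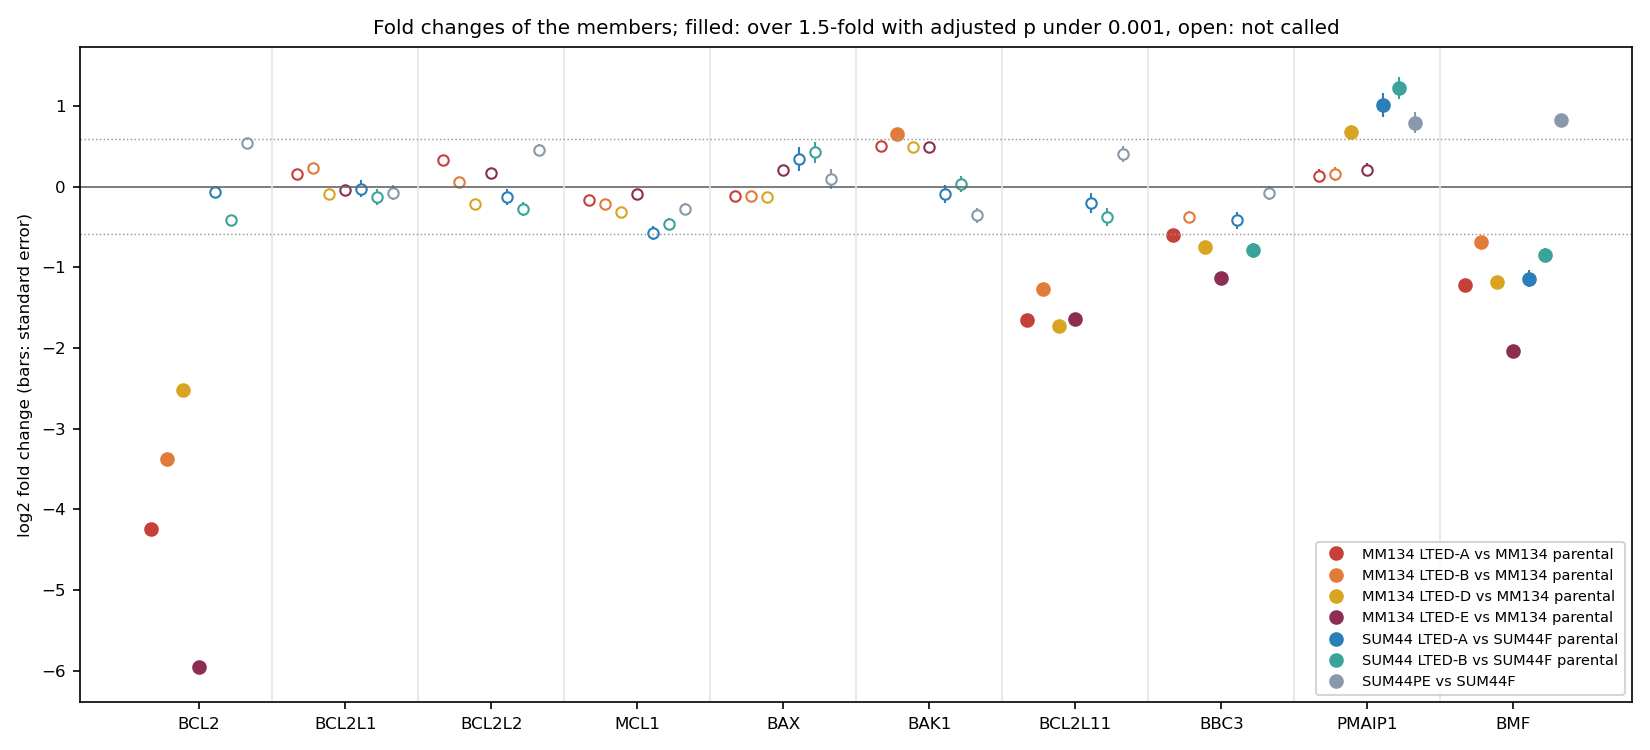
Log2 fold change (y axis) of each member (x axis) in 7 comparisons, by edgeR's quasi-likelihood fit. Bars show the SE derived from the F statistic, which can be too small where counts are low. Filled points passed both thresholds, open points did not, and dotted lines mark a fold of 1.5. BCL2 reaches -5.95 in MM134 LTED-E but only -0.42 in SUM44 LTED-B, while PMAIP1 reaches 1.23 in SUM44 LTED-B.

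Among the 4 survival genes, 4 of 16 comparisons of a gene in an MM134 variant were called, all of them BCL2 and all lower. Over all genes 18.2% of such comparisons were called in MM134 and 15.5% in SUM44. In SUM44 0 of 8 survival gene comparisons were called by edgeR and 0 by DESeq2, 4 had an unadjusted p under 0.05, and 3 were called with library totals (MCL1 in both variants and BCL2 in LTED-B). The share of all genes at an unadjusted p under 0.05 was not counted for any comparison. Counts at that threshold, here and below, therefore have no share to be set against. As a share of the summed CPM per kb of the 4 survival genes, MCL1 was highest in each of the 9 groups, from 44.2% ± 3.27 (SD, n = 2) in SUM44 LTED-A to 59.1% ± 0.194 (SD, n = 3) in MM134 LTED-E. BCL2 made up 16.9% ± 0.829 (SD, n = 3) of this sum in MM134 parental. It made up 4.05% ± 0.309 in LTED-D, 2.01% ± 0.118 in LTED-B, 1.07% ± 0.0313 in LTED-A and 0.339% ± 0.0303 in LTED-E (SD, n = 3 each). The share of BCL2L1 was 20.4% in MM134 parental and 24.5 to 29.4% in the variants, and that of BCL2L2 was 11.6% and 13.6 to 17.3%. The summed survival level was 79.0 ± 1.96 CPM per kb in MM134 parental and 57.3 to 66.5 CPM per kb in the variants (SD, n = 3). In SUM44 MCL1 made up 53.3% ± 1.98 of the sum in SUM44F, 44.2% ± 3.27 in LTED-A and 49.1% ± 0.583 in LTED-B, with BCL2 at 13.5% ± 0.779 in SUM44F, 15.9% ± 0.989 in LTED-A and 12.8% ± 0.492 in LTED-B, and BCL2L1 at 27.1% in SUM44F and 33.1 and 31.7% in the variants. The summed survival level of SUM44F was 102 ± 5.97 CPM per kb (SD, n = 3), against 82.3 and 80.0 CPM per kb in its variants A and B. MCL1 stayed the highest share when lengths were taken over all annotated exons and when the readthrough gene was added to BCL2L2.

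**Figure D3:**
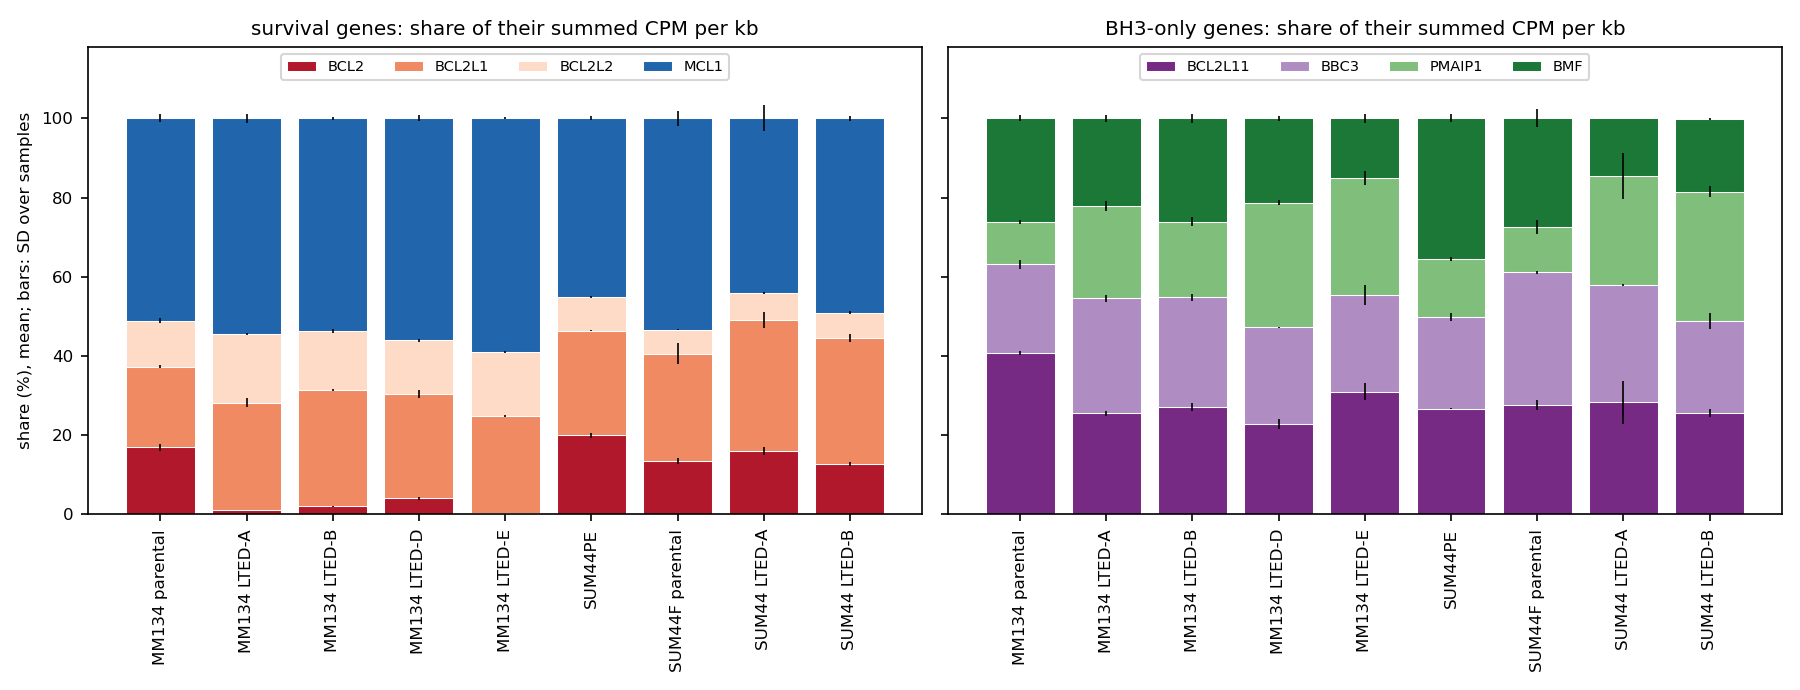
Share of each gene (y axis, percent of the summed CPM per kb; means, with bars for the SD over samples) among the 4 survival genes (left) and the 4 BH3-only genes (right) in the 9 groups (x axis). The BCL2 segment shrinks from 16.9% in MM134 parental to 0.339% in MM134 LTED-E, and the PMAIP1 segment grows from 11.5% in SUM44F to 32.6% in SUM44 LTED-B.

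BAX (ENSG00000087088; chr19:48954815-48961798, plus strand) encodes an effector that moves to mitochondria when activated. Its level was 14.8, 14.7 and 14.3 CPM in MM134 parental and 12.9 to 17.0 CPM in the variants, with LTED-E, at 16.5 to 17.0 CPM, above all other libraries. The log2 fold changes were -0.11, -0.11, -0.13 and 0.21 in variants A, B, D and E, and none was called. In SUM44F the 3 libraries held 11.5, 9.43 and 7.66 CPM, a wide spread, and the variants held 11.9 to 13.2 CPM, with log2 fold changes of 0.35 (adjusted p = 0.0956) and 0.43 (adjusted p = 0.0245) by edgeR's quasi-likelihood test with Benjamini-Hochberg adjustment. Without SUM44F replicate 1 these were 0.50 and 0.58, also not called. BAX was 1.53-fold higher in MM134 parental than in SUM44F (log2 difference 0.61, SE 0.0901, adjusted p = 3.26e-06 by edgeR's quasi-likelihood test with Benjamini-Hochberg adjustment). That call was lost without SUM44F replicate 3, where the log2 difference was 0.48, and in a fit of the 2 groups alone (0.64, adjusted p = 0.00227 by edgeR), and it was kept without SUM44F replicate 1, where the difference was 0.77.

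BAK1 (ENSG00000030110; chr6:33572547-33580293, minus strand) encodes the effector that resides in the mitochondrial membrane. Its level was 23.3, 22.8 and 23.8 CPM in MM134 parental, and 30.9 to 38.8 CPM in the 12 LTED libraries, all above the parental libraries. The log2 fold change was 0.51 in LTED-A, 0.66 in LTED-B, 0.49 in LTED-D and 0.50 in LTED-E, with adjusted p between 6.29e-10 and 3.99e-08 by edgeR's quasi-likelihood test with Benjamini-Hochberg adjustment. BAK1 rose in LTED-B, where the change was 1.58-fold, and was under the fold minimum in the others at 1.40-fold to 1.42-fold. With library totals in place of TMM factors, the LTED-B call was lost. In SUM44 the values were 29.1, 29.4 and 23.0 CPM in SUM44F and 24.0 to 28.6 CPM in the variants, within the SUM44F range, with log2 fold changes of -0.09 and 0.04, and of -0.042 and 0.089 without SUM44F replicate 1. Of the 2 effectors, 1 of 8 comparisons was called in MM134 and 0 of 4 in SUM44 by edgeR, where 2 had an unadjusted p under 0.05 and DESeq2 called 0, against 18.2% and 15.5% of comparisons over all genes.

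BCL2L11 (ENSG00000153094; chr2:111119378-111168444, plus strand) encodes BIM, a BH3-only protein that binds all survival proteins. Its level was 56.4, 56.0 and 52.2 CPM in MM134 parental, the highest of any group. It was 17.5, 17.4 and 17.8 in LTED-A, 20.6, 22.9 and 24.7 in LTED-B, 17.5, 15.3 and 16.6 CPM in LTED-D and 16.6, 18.0 and 17.7 CPM in LTED-E. No variant overlapped the parental range, and LTED-A, LTED-D and LTED-E overlapped each other. BCL2L11 fell by 1.65 on the log2 scale in LTED-A, 3.13-fold, by 1.27 in LTED-B, 2.41-fold, by 1.72 in LTED-D, 3.30-fold, and by 1.64 in LTED-E, 3.12-fold. The SE was 0.0542 to 0.0572 and the adjusted p 7.59e-15 to 6.29e-13 by edgeR's quasi-likelihood test with Benjamini-Hochberg adjustment. The adjacent genes ACOXL and ANAPC1 had log2 fold changes of -0.11 to 0.87 and of 0.06 to 0.50. In the MM134 variants the median over the 20 genes nearest to BCL2L11 was -0.25 to -0.09. In SUM44F BCL2L11 was at 27.6, 29.2 and 28.9 CPM, against 29.0 and 20.8 CPM in LTED-A, and LTED-B held 22.6, 22.8 and 20.7 CPM, so that LTED-A overlapped SUM44F and LTED-B lay below it. The log2 fold changes of -0.20 (adjusted p = 0.252) and -0.38 (adjusted p = 0.0188) were not called by edgeR's quasi-likelihood test with Benjamini-Hochberg adjustment, nor were those of -0.23 and -0.40 without SUM44F replicate 1. The mean effect in MM134 minus that in SUM44 was -1.28 (SE 0.0996, adjusted p = 3.1e-10 by edgeR's quasi-likelihood test with Benjamini-Hochberg adjustment), and -1.27 without SUM44F replicate 1. MM134 parental held 1.89-fold more BCL2L11 than SUM44F (log2 difference 0.92, adjusted p = 1.62e-09 by edgeR's quasi-likelihood test with Benjamini-Hochberg adjustment), and without SUM44F replicate 1 the log2 difference was 0.90, still called. The long noncoding gene MIR4435-2HG overlaps BCL2L11 on the opposite strand, with estimated reads of 11.7 to 63.9% of those of BCL2L11, and the strand setting of the counting was not stated, so the values of BCL2L11 are uncertain to that extent.

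BMF (ENSG00000104081; chr15:40087890-40108892, minus strand) encodes a BH3-only protein held at the cytoskeleton and released by detachment and other stress. Its level was 33.9, 32.4 and 31.2 CPM in MM134 parental. It was 13.7, 13.9 and 14.6 in LTED-A, 18.9, 21.4 and 20.1 in LTED-B, 14.0, 14.5 and 14.2 CPM in LTED-D and 7.43, 8.21 and 7.83 CPM in LTED-E. LTED-E was lowest of all 9 groups and LTED-B the nearest to parental, without overlap. BMF fell by 1.22 on the log2 scale in LTED-A, 2.32-fold, by 0.69 in LTED-B, 1.61-fold, by 1.18 in LTED-D, 2.26-fold, and by 2.04 in LTED-E, 4.12-fold, with adjusted p from 2e-16 to 7.27e-10 by edgeR's quasi-likelihood test with Benjamini-Hochberg adjustment. In SUM44F BMF was at 27.7, 27.8 and 22.9 CPM, against 12.2 and 11.5 CPM in SUM44 LTED-A and 14.5, 14.6 and 14.5 CPM in SUM44 LTED-B. Every variant library lay below every SUM44F library. BMF fell by 1.14 (SE 0.106, adjusted p = 1.31e-05) in LTED-A and by 0.85 (SE 0.0922, adjusted p = 3.28e-05) in LTED-B on the log2 scale by edgeR's quasi-likelihood test with Benjamini-Hochberg adjustment, 2.21-fold and 1.80-fold. Without SUM44F replicate 1 both calls were kept, with log2 fold changes of -1.10 and -0.80. BMF was the member called lower in all 6 LTED variants, and the difference between its mean effects in MM134 and SUM44, -0.29 (SE 0.0745), was not called. Of all genes tested in both lines, 0.937% were called lower in at least 3 MM134 variants and in both SUM44 variants. That rule is looser than all 6 variants, for which the share was not counted.

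BBC3 (ENSG00000105327; chr19:47220822-47232766, minus strand) encodes PUMA, a BH3-only protein induced by p53 and by other stress. Its level was 10.5, 11.7 and 10.6 CPM in MM134 parental. It was 7.46, 7.26 and 7.03 in LTED-A, 8.07, 8.71 and 8.43 in LTED-B, 6.55, 6.37 and 6.43 CPM in LTED-D and 5.56, 4.36 and 5.01 CPM in LTED-E. All 12 LTED libraries lay below the parental ones, with LTED-E lowest. BBC3 fell by 0.60 on the log2 scale in LTED-A, 1.51-fold, by 0.75 in LTED-D, 1.68-fold, and by 1.13 in LTED-E, 2.19-fold, with adjusted p of 1.21e-06, 1.4e-07 and 4.52e-10 by edgeR's quasi-likelihood test with Benjamini-Hochberg adjustment. In LTED-B the log2 fold change was -0.38 (1.30-fold) and not called. The LTED-A call sat just past the fold minimum and was lost without MM134 parental replicate 2 (log2 fold change -0.55) and without LTED-A replicate 3 (-0.57). In SUM44F BBC3 was at 12.8, 12.9 and 12.1 CPM, against 9.76 and 9.10 CPM in LTED-A, and LTED-B held 6.92, 6.97 and 7.87 CPM, with no overlap. BBC3 fell by 0.79 (SE 0.0963, adjusted p = 7.26e-05) on the log2 scale in SUM44 LTED-B by edgeR's quasi-likelihood test with Benjamini-Hochberg adjustment, 1.73-fold, and the log2 fold change was -0.78, still called, without SUM44F replicate 1. The LTED-A value of -0.41 (adjusted p = 0.0113, same test of edgeR with Benjamini-Hochberg adjustment) was not called, nor was that of -0.40 without SUM44F replicate 1.

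PMAIP1 (ENSG00000141682; chr18:59899996-59904305, plus strand) encodes NOXA, a BH3-only protein that binds MCL1 in particular and marks it for degradation. It was the only member called higher in the SUM44 LTED variants against SUM44F. Its level was 4.40, 3.88 and 5.03 CPM in SUM44F, 7.88 and 10.0 CPM in SUM44 LTED-A and 11.1, 10.3 and 9.87 CPM in SUM44 LTED-B. All variant libraries lay above all SUM44F libraries. PMAIP1 rose by 1.01 (SE 0.1469, adjusted p = 0.000332) in LTED-A, 2.02-fold, and by 1.23 (SE 0.1353, adjusted p = 3.57e-05) in LTED-B, 2.34-fold, on the log2 scale by edgeR's quasi-likelihood test with Benjamini-Hochberg adjustment. The LTED-A call was lost without any 1 of SUM44F replicate 1 (1.00), SUM44F replicate 2 (0.94), SUM44 LTED-A replicates 2 and 3 (0.82, with 1 sample left in that variant) or SUM44 LTED-B replicate 2 (1.01), where the adjusted p was 0.00104 to 0.00668 by edgeR's quasi-likelihood test with Benjamini-Hochberg adjustment, and with library totals in place of TMM factors (0.83) or a fit of the 2 groups alone (1.02, adjusted p = 0.00402 by edgeR). The LTED-B call was kept without SUM44F replicate 1 (1.22). In MM134 the level was 5.37, 5.37 and 5.41 CPM in parental, 5.79, 6.40 and 5.65 in LTED-A, 5.61, 5.71 and 6.61 in LTED-B, 8.55, 8.67 and 8.38 CPM in LTED-D and 6.69, 6.25 and 5.65 CPM in LTED-E. LTED-D stood above the other MM134 groups. PMAIP1 rose there by 0.68 on the log2 scale (SE 0.0836, adjusted p = 1.43e-06 by edgeR's quasi-likelihood test with Benjamini-Hochberg adjustment), 1.60-fold, a call lost with library totals, and its values of 0.14, 0.16 and 0.21 on that scale in variants A, B and E were not called. The mean effect in MM134 minus that in SUM44 was -0.83 (SE 0.1328, adjusted p = 1.83e-05 by edgeR's quasi-likelihood test with Benjamini-Hochberg adjustment), and -0.83 without SUM44F replicate 1. Over the 20 genes nearest to PMAIP1, the median log2 fold change was 0.23 to 0.45 in the MM134 variants and 0.12 in either SUM44 variant. In each MM134 variant 4 to 7 of these genes were called higher and 2 lower. The adjacent genes CCBE1 and CDH20 had values there of -0.12 to 0.25 and of 0.52 to 1.38. Any part of this region in the PMAIP1 changes was not tested.

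Of the 4 BH3-only genes, 12 of 16 comparisons were called in MM134, 11 of them lower, and 5 of 8 in SUM44, 3 lower and 2 higher. Over all genes 18.2% of comparisons were called in MM134, 8.95% lower, and 15.5% in SUM44, 7.92% lower and 7.54% higher. Their summed level was 26.4 ± 0.847 CPM per kb in MM134 parental and 13.5, 16.5 and 14.3 CPM per kb in LTED-A, LTED-B and LTED-D, with LTED-E lower still. It was 20.3 ± 0.517 CPM per kb in SUM44F against 17.2 and 16.9 CPM per kb in the 2 variants (SD, n = 3). BCL2L11 made up 40.7% ± 0.541 of the sum in MM134 parental and 22.7 to 31.0% in the variants. PMAIP1 made up 10.7% ± 0.395 in MM134 parental and 19.1 to 31.5% in the variants, and 11.5% ± 1.78 in SUM44F against 27.5% ± 5.72 and 32.6% ± 1.49 in SUM44 LTED-A and LTED-B (SD; n = 3, and n = 2 in SUM44 LTED-A).

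Counted over all members, 17 of 40 comparisons of a member in an MM134 variant were called, 15 lower and 2 higher, where 18.2% of all comparisons of a gene in a variant were called, 8.95% lower and 9.24% higher. By variant the share of all genes called was 20.3% in LTED-A, 15.9% in LTED-B, 17.6% in LTED-D and 19% in LTED-E. In SUM44, 5 of 20 were called, 3 lower and 2 higher, against 15.5% of all comparisons (7.92% lower and 7.54% higher), with 13.7% of genes called in LTED-A and 17.3% in LTED-B. Members called in the difference between MM134 and SUM44 effects were BCL2, BCL2L11 and PMAIP1, 3 of 10, where 20.9% of all genes were called. BAX was added to these without SUM44F replicate 1 (-0.60), and BAK1, at 0.55 and 1.46-fold with all libraries, without SUM44F replicate 3 (0.67) or SUM44 LTED-A replicates 2 and 3 (0.59, with 1 sample left in that variant). Beside the MM134 changes, the summed level of 10 immune cell markers was 1.0 to 2.07 CPM in the parental libraries and 11.3 to 32.6 CPM in the LTED libraries, from CD68, LYZ and ITGAM, with CD3D at 0 and MS4A1 at no more than 3 counts in any library. The summed fibroblast markers were 20.9 to 35.9 CPM in MM134 parental and 8.3 to 27.7 CPM in the variants. The luminal markers were 4380 to 4400 CPM in MM134 parental and 6110 to 7090 CPM in the variants. In SUM44 the immune markers summed to 39.5 to 55.7 CPM in SUM44F and 13.8 to 17.9 CPM in the variants, mostly from ITGAM. Their part in the members' changes was not tested.

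The 4 MM134 variants differed among themselves in 3 of 10 members, where 19.6% of all genes were called. The highest and lowest variants, LTED-D and LTED-E, were 10.8-fold apart in BCL2. The corresponding spread was 2.56-fold in BMF and 1.69-fold in BBC3, both between LTED-B and LTED-E. The adjusted p was 2.92e-16, 1.93e-12 and 1.22e-06 for the 3 genes by edgeR's quasi-likelihood test with Benjamini-Hochberg adjustment. All 10 members had an unadjusted p under 0.05 by that test, and the share of all genes at that threshold was not counted. The median spread over all genes tested was 0.504 on the log2 scale. PMAIP1, with a spread of 1.45-fold, was added without LTED-A replicate 2 or LTED-B replicate 3 (0.60 on the log2 scale in both). SUM44 LTED-A and LTED-B differed in 0 of 10 members by edgeR, where 7.42% of all genes were called. In that comparison 3 members (BCL2, BBC3 and BMF) had an unadjusted p under 0.05, and DESeq2 called 0.

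**Figure D4:**
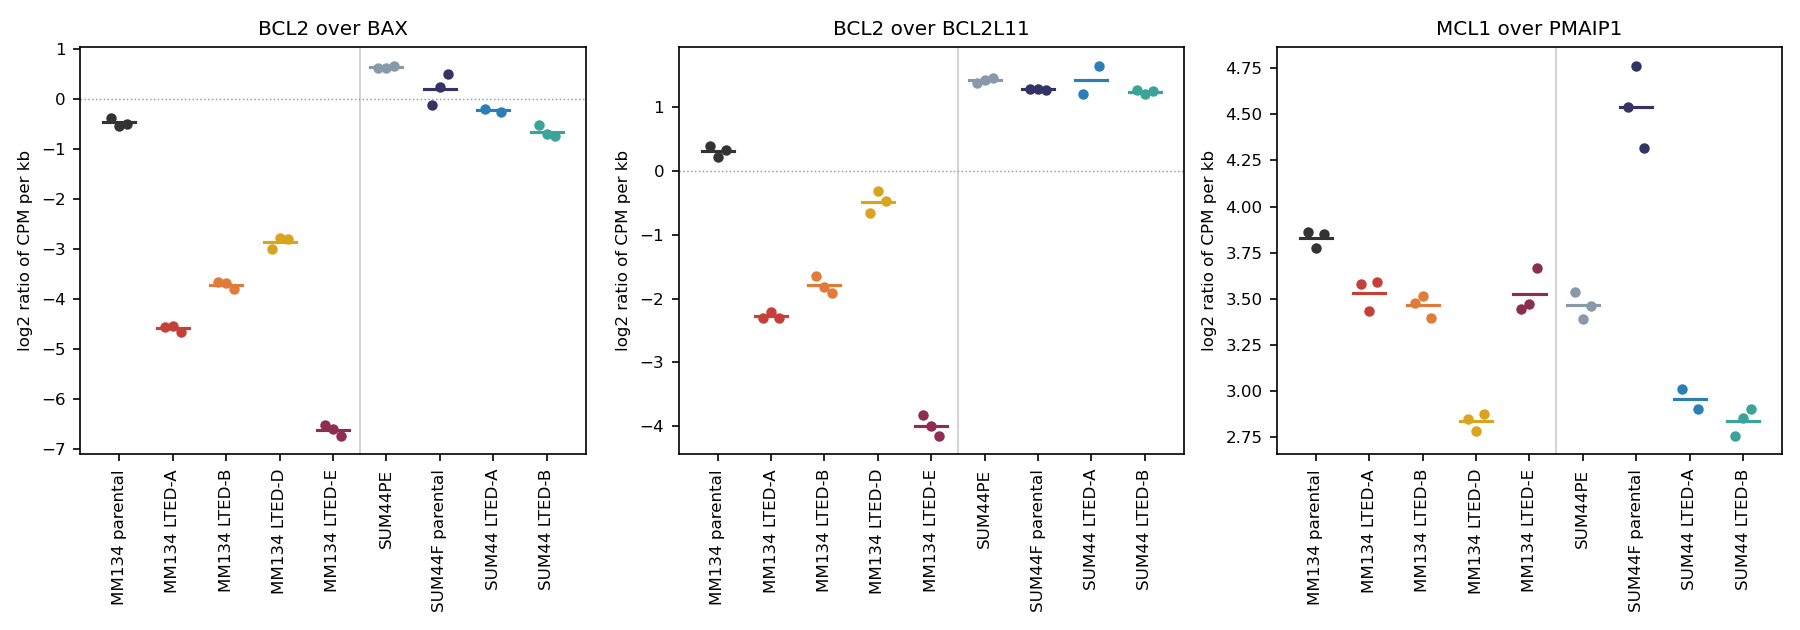
Log2 ratio of CPM per kb (y axis) of BCL2 over BAX, BCL2 over BCL2L11 and MCL1 over PMAIP1 in each sample, by group (x axis); points are samples, lines are means, dotted lines mark equal levels. BCL2 over BCL2L11 lies between 0.225 and 0.39 in MM134 parental, below 0 in all MM134 LTED samples and at or above 1.202 in all SUM44 samples.

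Ratios between a survival gene and its partners, on the log2 scale of CPM per kb, followed the single genes. BCL2 over BAX was -0.46 ± 0.083 in MM134 parental and -4.59 ± 0.071, -3.71 ± 0.079, -2.85 ± 0.13 and -6.62 ± 0.11 in variants A, B, D and E (SD, n = 3 each). BCL2 over BCL2L11 was 0.32 ± 0.083 in MM134 parental and -2.28 ± 0.054, -1.79 ± 0.133, -0.48 ± 0.174 and -3.99 ± 0.163 in the same variants (SD, n = 3 each), although BCL2L11 itself fell in each. BCL2 over BAX in SUM44 was 0.21 ± 0.31 in SUM44F (SD, n = 3), -0.215 ± 0.046 in LTED-A (SD, n = 2) and -0.648 ± 0.117 in LTED-B (SD, n = 3), with all variant samples below all SUM44F samples. BCL2 over BCL2L11 there was 1.28 ± 0.016 in SUM44F (SD, n = 3), 1.44 ± 0.311 in LTED-A (SD, n = 2) and 1.24 ± 0.037 in LTED-B (SD, n = 3), with overlap. MCL1 over PMAIP1 was 4.54 ± 0.223 in SUM44F (SD, n = 3), the highest of all groups, and 2.96 ± 0.074 (SD, n = 2) and 2.84 ± 0.074 (SD, n = 3) in SUM44 LTED-A and LTED-B. In SUM44PE it was 3.46 ± 0.073 (SD, n = 3). It was 3.83 ± 0.048 in MM134 parental and 3.53 ± 0.088, 3.46 ± 0.061, 2.84 ± 0.047 and 3.53 ± 0.123 in variants A, B, D and E (SD, n = 3 each). The level of these ratios shifts with the transcript length taken for each gene (795 bases for BAX), which is the same in every group.

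The parental cultures were compared next. MM134 parental and SUM44F differed in 3 of 10 members (BCL2L1 lower, BAX and BCL2L11 higher in MM134), where 38.1% of all genes were called, and BCL2L2, 1.47-fold higher in MM134, was added without MM134 parental replicate 1 (log2 difference 0.59). SUM44PE and SUM44F differed in 2 of 10, where 5.57% of all genes were called. BMF was at 45.6, 48.4 and 45.6 CPM in SUM44PE, above SUM44F, a 1.77-fold difference (log2 0.82, SE 0.0782, adjusted p = 7.32e-06 by edgeR's quasi-likelihood test with Benjamini-Hochberg adjustment) and 0.87 on the log2 scale without SUM44F replicate 1. PMAIP1 was at 7.13, 8.31 and 7.88 CPM in SUM44PE and 1.74-fold above SUM44F (log2 0.79, SE 0.1282, adjusted p = 0.00057 by edgeR's quasi-likelihood test with Benjamini-Hochberg adjustment). The PMAIP1 call was lost in 8 of 11 fits that left out 1 library: any SUM44PE library, SUM44F replicate 1 or 2, or any SUM44 LTED-B library. Its log2 values in those fits were 0.70 to 0.87. BCL2, at 1.46-fold above SUM44F, was under the fold minimum and was added without SUM44PE replicate 1 (log2 difference 0.62).

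Of the wider family, 11 of 13 other genes were expressed enough to be tested in each line. BCL2A1 and BCL2L10, further survival genes, had at most 3 counts in any library. In the 9 lists that follow, genes are counted where they were called in the same direction in at least 3 MM134 variants or in both SUM44 variants, and over all genes tested those shares were 6.66% higher and 6.83% lower in MM134 and 3.87% higher and 4.75% lower in SUM44. The median log2 fold change over all genes, averaged over variants, was 0 in MM134 and -0.07 in SUM44. For each list, beside a count of 0 by edgeR, the genes with an unadjusted p under 0.05 in the same direction and in as many variants are given, with the calls of DESeq2. Among the other family genes 1 rose and 1 fell in MM134 (median -0.06). In SUM44 1 rose and 0 fell (2 lower at an unadjusted p under 0.05, 0 by DESeq2; median 0), and DESeq2 called 2 as higher. HRK, a BH3-only gene, rose in both lines, by a mean log2 fold change of 1.31 in MM134 and 1.37 in SUM44. BOK, an effector-like member, fell by a mean of 0.78 in MM134.

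Downstream of the mitochondria, 1 of 10 apoptosome and caspase genes rose and 0 fell in MM134 (1 lower at an unadjusted p under 0.05, 0 by DESeq2; median 0.05). In SUM44 0 rose (1 at an unadjusted p under 0.05, 1 by DESeq2) and 0 fell (0 and 0; median 0.15). AIFM1, a flavoprotein released from mitochondria, rose by a mean of 0.80 in MM134. Of 5 inhibitors of apoptosis 0 rose in MM134 (1 at an unadjusted p under 0.05, 0 by DESeq2) and 0 fell (2 and 0; median -0.13). In SUM44 BIRC5, which encodes the mitotic protein survivin, rose by 1.47 and BIRC3, which acts at TNF receptors, fell by 1.35 (median -0.11). In the death receptor pathway, 2 of 9 genes tested rose in MM134, the TNF receptor gene TNFRSF1A (1.15) and the TRAIL gene TNFSF10 (1.02), and 0 fell (1 at an unadjusted p under 0.05, 0 by DESeq2; median 0.39). In SUM44 3 of 10 fell, CFLAR (-1.61), CASP10 (-1.58) and CASP8 (-0.79), which act in the complex formed at these receptors, and 0 rose (2 at an unadjusted p under 0.05, 0 by DESeq2; median -0.36). Of 4 outer membrane partners, 0 rose (1 at an unadjusted p under 0.05) and 0 fell (0) in MM134, and 0 rose (2) and 0 fell (0) in SUM44, with 0 by DESeq2 in each case and medians of -0.06 and 0.37. Of 5 genes of MCL1 turnover, the deubiquitinase gene USP9X rose by 1.88 and the ubiquitin ligase gene FBXW7 fell by 0.97 in MM134 (median 0.01). In SUM44 0 of these rose (0 at an unadjusted p under 0.05) and 0 fell (1), with 0 by DESeq2 and a median of -0.21.

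Among 15 transcription factors known to act on family genes, 2 rose and 2 fell in MM134 (median -0.17), and 3 rose and 2 fell in SUM44 (median 0.35). As mean log2 fold changes in MM134, MYC fell by 4.10 and TP73 by 1.43, while STAT3 rose by 0.88 and DDIT3 by 0.83. In SUM44 ATF4 rose by 1.27, E2F1 by 1.07 and DDIT3 by 1.06, while STAT3 fell by 1.15 and FOXO3 by 1.14. DESeq2 called 1 of these as lower in both variants, STAT3. Of 16 other p53 targets, 4 fell and 0 rose in MM134 (4 higher at an unadjusted p under 0.05, 0 by DESeq2; median -0.23), and 1 rose and 5 fell in SUM44 (6 fell by DESeq2; median -0.54). The cell-cycle inhibitor gene CDKN1A fell by 4.33 in MM134 and by 3.21 in SUM44. TP53INP1 fell by 2.93 in MM134 and fell by 5.02 in SUM44. GADD45A fell by 2.05 in MM134 and fell by 2.61 in SUM44. PHLDA3 fell by 0.80 in MM134 and BTG2 by 1.81 in SUM44. Of 6 estrogen-regulated genes, 1 rose and 2 fell in MM134 (median -0.50), and 2 rose and 0 fell in SUM44 (3 lower at an unadjusted p under 0.05, 2 by DESeq2; median -0.58). TFF1 rose by 7.80 in MM134 and by 4.45 in SUM44. PGR, the progesterone receptor gene, fell by 3.43 and PDZK1 by 1.47 in MM134, and ESR1, the estrogen receptor gene, rose by 1.27 in SUM44.

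For the 2 members whose highest and lowest group means differed by more than 4-fold, the protein-coding genes with the most similar profile over the 9 group means were looked up among 14403 genes, as a description. BCL2 (93.1-fold between its highest and lowest group) was most like HP1BP3 (Pearson r of 0.978), NPTXR (0.975) and ESPN (0.975). Group means of these genes ran from 149 to 286 CPM, 5.87 to 36.0 CPM and 1.84 to 23.2 CPM, in that order. Pearson r does not measure the size of a change. BMF (5.95-fold) was most like SEPTIN10 (0.959), OFD1 (0.949) and SOS2 (0.931), whose group means ran from 50.4 to 93.9 CPM, 31.5 to 46.3 CPM and 54.2 to 91.9 CPM. The group means share cell lines and parental cultures, so the 9 points are not independent. The other members spanned 3.32-fold (BCL2L11), 2.53-fold (BBC3), 2.35-fold (PMAIP1), 2.27-fold (BCL2L2), 1.84-fold (BCL2L1), 1.76-fold (BAX), 1.72-fold (BAK1) and 1.69-fold (MCL1) between their highest and lowest group means.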

How the data were processed

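RNA was extracted from 27 wells, and libraries were made with a stranded total RNA kit. The deposited table holds estimated counts per gene, which the authors made with Salmon 0.6.0 at default settings against hg38; its strand setting is not given in the sources used here. The estimated counts were rounded, replicates 2 and 3 of SUM44 LTED-A were averaged, and genes were kept by filterByExpr, which left 26061 genes in MM134, 26834 in SUM44, 27457 with SUM44PE added and 29200 over both lines. TMM factors and quasi-likelihood F-tests were computed in edgeR 4.0.16 with limma 3.58.1 and R 4.3.3, with Benjamini-Hochberg adjustment over all genes tested. A call required a fold above 1.5 and an adjusted p under 0.001, the study's thresholds. MM134 and SUM44 were fitted separately, as in the study's methods, and together for comparisons between lines. The fitting code was tested on simulated data. Gene positions and lengths were taken from GENCODE v44. Python 3.11.15, pandas 2.3.3, numpy 2.4.6 and matplotlib 3.10.9 were used for levels and plots.

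All 10 members were named. From each pathway list, genes were named if called in the same direction in at least 3 MM134 variants or in both SUM44 variants, at most 4 a list and line by the largest mean change. DDIT3 in SUM44 was named beyond that limit, because it was also named in MM134. For members with more than 4-fold between group means, the 3 most similar genes by Pearson r of log2(CPM + 1) were named. The members and lists were chosen with earlier results of these data known. Alternatives were DESeq2 1.42.0, other scalings, filters and thresholds, thinned counts, fits on fewer groups, a replicate block and leaving out each library.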

Additional observations from a re-analysis of the deposited data

Results flagged for a closer look

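For 3 members the LTED effect on the log2 scale, averaged over variants, differed between MM134 and SUM44 by a test of the difference itself, with edgeR's quasi-likelihood test and Benjamini-Hochberg adjustment. The difference was -3.79 for BCL2, from mean effects of -4.02 in MM134 and -0.24 in SUM44. It was -1.28 for BCL2L11, from -1.57 and -0.29. It was -0.83 for PMAIP1, from 0.30 and 1.12. All 3 calls were kept without SUM44F replicate 1, the library with the highest fibroblast markers, and without SUM44F replicate 3.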

How the results depend on the processing

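Over all alternatives, 2714 single member values kept their direction and side of the threshold, 38 lost a call, 39 gained one and 19 changed sign, none of them called. DESeq2 and RLE size factors made the same member calls. Leaving out 1 library gave 16 to 17 calls in MM134 (17 with all), 4 to 5 in SUM44 (5), 1 to 2 for SUM44PE (2), 2 to 4 between parental lines (3), 3 to 4 for the difference between lines (3), 3 to 4 among MM134 variants (3) and 0 to 0 between SUM44 variants (0). With no fold minimum the counts were 26, 8, 4, 6, 5 and 9 for the first 6 comparisons. At a fold of 2 they were 12, 3, 0, 0, 2 and 2. The shares of all genes called at these changed thresholds were not counted, so these counts are not a result about the members. Library totals gave 15 in MM134, 7 in SUM44 and 1 for SUM44PE, and moved the median log2 fold change of all genes to between -0.226 and -0.125 in MM134 and to -0.226 and -0.288 in SUM44. With them, 4449 to 5566 of all 26061 genes were called in an MM134 variant. In SUM44 LTED-A and LTED-B 3551 and 4252 of 26834 were called, and for SUM44PE 1534 of 27457. A fit on SUM44PE and SUM44F alone gave 1. A minimum of 10 counts gave 2 between parental lines and 4 for the difference between lines, as thinned counts did for the latter. The replicate block gave 17, 5, 1, 3, 3, 3 and 0, where PMAIP1 was lost for SUM44PE (0.80, adjusted p = 0.00102 by edgeR). The main fits did not pair same-numbered samples, which had r over 0.1 in 0 of 30 pairs in MM134 and 3 of 9 in SUM44. In SUM44 the highest r was 0.166 and the median 0.038, against a median of -0.045 for other pairs. Sign changes with library totals were BCL2L1 and PMAIP1 in MM134 LTED-A (-0.0065 and -0.025), BCL2L2 and PMAIP1 in LTED-B (-0.12 and -0.022) and BAK1 in SUM44 LTED-B (-0.15, and -0.0012 with at least 10 counts). BCL2L1 in SUM44 LTED-A was 0.011 by DESeq2, 0.011 with RLE and 0.003 with SUM44PE added. With 1 library left out, values that turned sign ranged in SUM44 LTED-A from -0.12 to 0.067 (BCL2L1), -0.18 to 0.026 (BAK1) and -0.41 to 0.02 (BCL2L11), in SUM44 LTED-B from -0.068 to 0.1 (BAK1), in MM134 LTED-B from -0.011 to 0.093 (BCL2L2), for SUM44PE from -0.0074 to 0.26 (BAX) and between SUM44 variants from -0.24 to 0.031 (MCL1) and -0.055 to 0.39 (BCL2L11). The causes were not tested. The lowest depth behind a call was 64 counts, for BCL2 in MM134 LTED-E.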
